A study of Homo sapiens with 15 samples.

Results

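The genes described here encode the subunits of integrins and laminins, 37 genes taken by symbol from the 33158 genes of the expression table. They were taken as whole gene families. The list holds 18 integrin alpha chains, 8 integrin beta chains and 11 laminin chains, the last made up of 5 alpha, 4 beta and 2 gamma chains. Expression was measured by sequencing of mRNA in 15 libraries from 3 established lines of triple negative breast cancer, SUM149, HCC1937 and SUM159. SUM149 and HCC1937 cells were sorted by flow cytometry on the surface proteins CD44 and CD24, and cells positive for CD44 with absent or low CD24 were taken as cancer stem cells (CSCs), the remainder as non-CSCs. SUM159 RNA came from the whole line without sorting. Its libraries are labelled as cancer stem cells, since most cells of this line have the surface type of the sorted CSCs. Each of the 5 groups had 3 libraries: SUM149 CSCs, SUM149 non-CSCs, HCC1937 CSCs, HCC1937 non-CSCs and SUM159. The fractions are cell populations of lines grown in culture, so no stroma or basement membrane of a tissue was present, and neither fraction was split further. In bulk RNA, fewer cells of a type and less RNA per cell cannot be told apart.

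Integrins are receptors made of an alpha and a beta chain that span the cell membrane and hold cells to the matrix, and the pairing of the chains decides which matrix proteins are bound. Laminins are secreted trimers of an alpha, a beta and a gamma chain that build the sheet of the basement membrane under epithelia. In the mammary gland, basal cells rest on laminin through integrins with the beta chains ITGB1 and ITGB4, and integrins with the alpha chain ITGAV bind other matrix proteins and release TGF-beta from its latent form.

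Levels are given as FPKM, the fragment counts corrected for transcript length and library size that the authors deposited, always in the order of replicates 1, 2 and 3. FPKM holds no read counts, which leaves the sequencing depth unknown, and no counting error can be given. Libraries of a group correlated across genes at 0.9871 to 0.9932 (Pearson, log2 scale) and differed in at least 17360 gene values, so no library was a copy of another. No source states that replicates came from separate cultures, and the p-values therefore measure the spread between these libraries. Differences were tested with limma on log2(FPKM + 0.1) over all genes whose mean level was 0.1 FPKM or more in the libraries compared. A gene near this minimum that passed it through the group where it is high had to differ, so counts over the genes that passed are a description. A gene is said to be called when its p-value, adjusted by the Benjamini-Hochberg method over all genes tested, was at most 0.05 and its log2 difference was at least 1 in size. Because of the constant of 0.1, log2 differences of genes with low FPKM are understated. With 3 libraries against 3, the two-sided exact permutation test used for single values cannot give a p below 0.10, which is its value wherever the groups are said not to overlap.

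The sorted fractions differed in the means of the sort markers, with CD24 lower and CD44 higher in CSCs, CD44 by less. CD24 was at a mean of 7.74 FPKM in CSCs and 139 in the non-CSCs of SUM149, and at 23.3 and 150.04 in HCC1937, while SUM159 was at 0.729. CD44 was at 84.4 and 64.5 FPKM in SUM149, 106 and 97.8 in HCC1937 and 28.8 in SUM159. Summed over 5 epithelial genes, of which KRT19 was the most abundant in SUM149 and KRT8 and KRT18 in HCC1937, FPKM came to 125 in CSCs and 1662 in non-CSCs of SUM149, against 463 and 1350.4 in HCC1937. The 3 mesenchymal genes, of which VIM made up most, summed to 2118 and 248 FPKM in SUM149 and to 952 and 166 in HCC1937. In both lines all 5 epithelial genes had lower and all 3 mesenchymal genes higher means in CSCs, and the part of these shifts in the values of integrins and laminins was not tested. SUM159 had 286 FPKM of the epithelial genes, 0.0467 of EPCAM, 0.0681 of CDH1 and 1081 of the mesenchymal genes. Of the last, VIM gave 1078, while ZEB1 at 0.204 and CDH2 at 2.86 were under the means of every sorted group. The 4 basal genes summed to 84.3 and 685 FPKM in CSCs and non-CSCs of SUM149, 217 and 422 in HCC1937 and 3.48 in SUM159. TP63 went against this order in SUM149, at 11.5 FPKM in CSCs against 2.37 in non-CSCs. Of the 3 receptors whose absence defines triple negative cells, PGR reached at most 0.00303 FPKM, ESR1 1.86 and ERBB2 19.999 in any library. These 3 receptors summed to 3.62 and 7.50 FPKM in CSCs and non-CSCs of SUM149, 10.5 and 19.2 in HCC1937 and 19.1 in SUM159.

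Between 14 and 24 of the 37 genes exceeded 1 FPKM in a library. A group mean of 1 FPKM or more was reached by 27 of them in some group and by 12 in every group, and 17 reached 10 FPKM in some group. A mean under 0.1 FPKM in every group was found for 6 genes, the integrin chains ITGA4, ITGA8, ITGA9, ITGA10 and ITGAD and the laminin chain LAMB4. ITGA8 and ITGA10 were listed at 0 in all 15 libraries. Added up, the 37 genes came to 1015.5 to 1584.4 FPKM in the sorted libraries and 634.9 to 744.6 in SUM159. As a share of all FPKM of a library this was 0.323% to 0.517% in sorted libraries and 0.0974% to 0.117% in SUM159, where the sum over all genes was 634746 to 652082 FPKM against 291276 to 366532 elsewhere. The plot of levels by library shows the genes ordered by family.

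**Figure D1:**
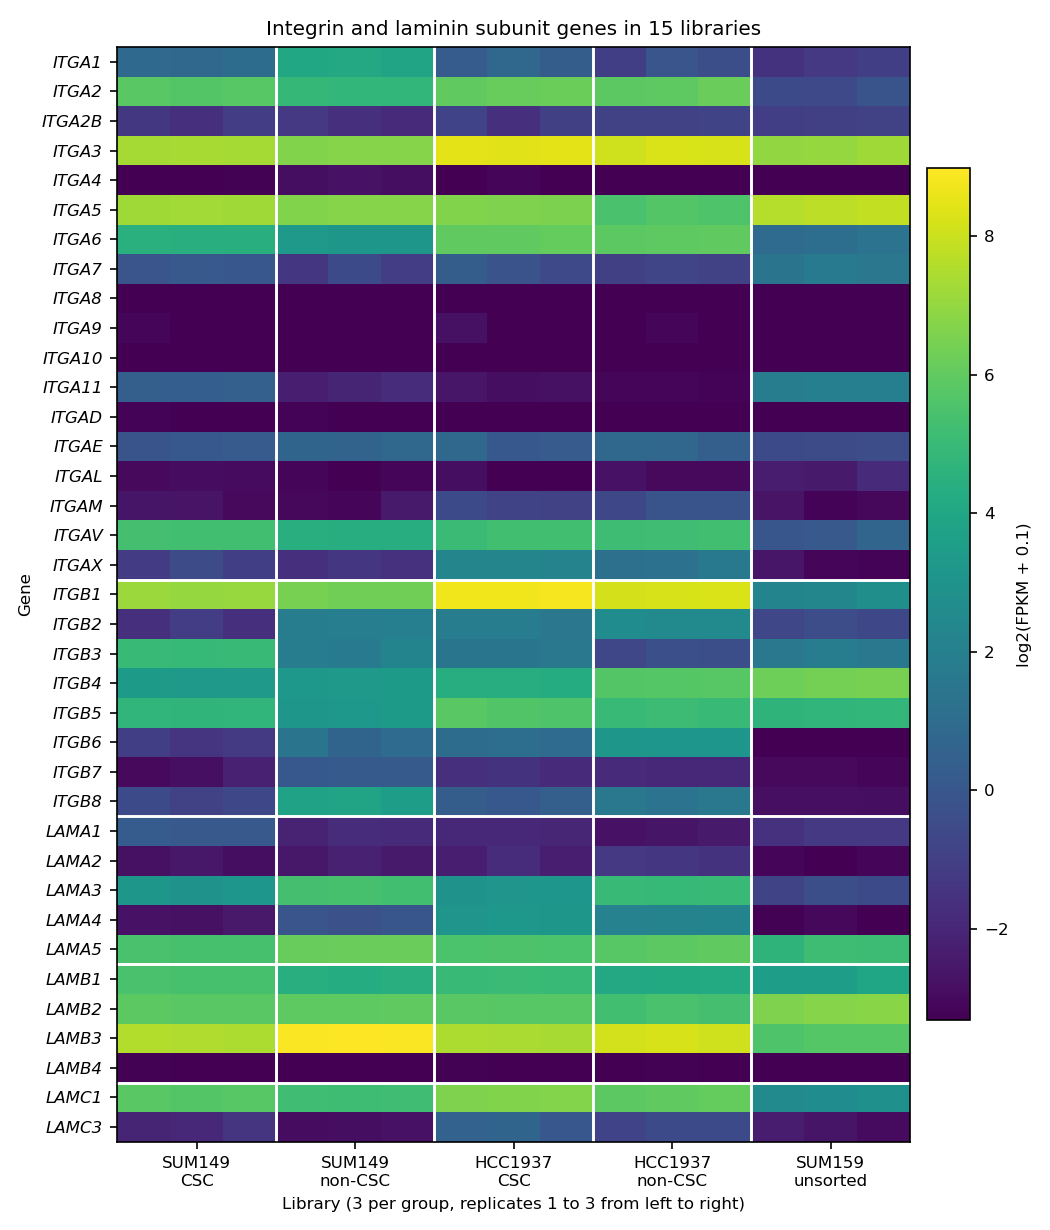
Level of each of the 37 genes in each of the 15 libraries, as log2(FPKM + 0.1), with libraries grouped by line and fraction and genes grouped as integrin alpha, integrin beta and laminin chains. LAMB3 reached the highest group mean, 491.7 FPKM in SUM149 non-CSCs, and ITGA8 and ITGA10 were at 0 in every library.

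In SUM149, 28 of the 37 genes passed the minimum level and were tested. Of these, 8 were called higher in CSCs (28.6%), against 12.8% of the 16037 genes tested, and 8 were called lower (28.6%), against 22.1%. Their median log2 difference between CSCs and non-CSCs was 0.57, and that of all genes tested was −0.11. Among integrin alpha chains, 3 of 11 were higher and 1 lower. For integrin beta chains the counts were 2 higher and 4 lower of 8, and for laminin chains 3 higher and 3 lower of 9. Of all genes called in SUM149, 36.5% were higher, a share that became 51.2% after quantile normalization, which moved the median of all genes by 0.21 on the log2 scale. Of the integrin and laminin genes called, 50% were higher, and 55.6% after quantile normalization. This share fell to 33.3% with a constant of 1 and to 40% at a minimum mean of 1 FPKM. With a constant of 1 in place of 0.1, which dampens low levels, 7 calls in SUM149 were lost, those of ITGA7, ITGA11, ITGB7, LAMA1, LAMA4, LAMB1 and LAMC3.

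In HCC1937, 29 of the 37 genes were tested. Calls were made for 3 higher in CSCs (10.3%), against 2.71% of the 15582 genes tested, and for 4 lower (13.8%), against 6.0%. Their median log2 difference was 0.25, beside −0.03 for all genes. By family, 1 of 11 integrin alpha chains was called higher and 0 lower, 1 of 8 integrin beta chains higher and 3 lower, and 1 of 10 laminin chains higher and 1 lower. The share of higher calls among all genes called was 31.1%, and 42.2% after rescaling to TPM, which moved the median of all genes by 0.12. Among the integrin and laminin genes that share was 42.9%, and 55.6% with quantile normalization or TPM. Without non-CSC replicate 1 it was 20%, or 1 of 5 calls. A constant of 1 lost the calls of ITGB8 and LAMC3 here, and a constant of 0.01 added LAMA1 (1.17), LAMA4 (1.004) and LAMA2 (−1.09).

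Both lines had calls in the same direction for 5 genes, ITGB3 and LAMC3 higher in CSCs and ITGB6, ITGB8 and LAMA3 lower. Of the 27 integrin and laminin genes tested in both lines, this makes 7.41% higher and 11.1% lower, against 1.23% and 4.01% of the 14423 genes tested in both. LAMC3, 1 of the 2 higher genes, was not called in either line when certain single libraries were left out, and in SUM149 it passed the minimum through the CSCs (0.189 FPKM, against 0.0405 in non-CSCs). None of the 27 was called in opposite directions, against 0.797% of all. LAMA4 came close, called at −2.52 in SUM149 and at 0.99 in HCC1937. With upper quartile, quantile or TPM scaling, or with the GC trend removed (1.04), the second value was a call as well. ITGA1 also came close, called at −3.10 in SUM149 and not called at 0.95 in HCC1937. Its HCC1937 value became a call with quantile normalization (1.04) and without non-CSC replicate 2 of HCC1937 (1.17). The plot of the CSC effect, meaning the log2 level in CSCs minus that in non-CSCs, places the lines side by side for each gene tested.

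**Figure D2:**
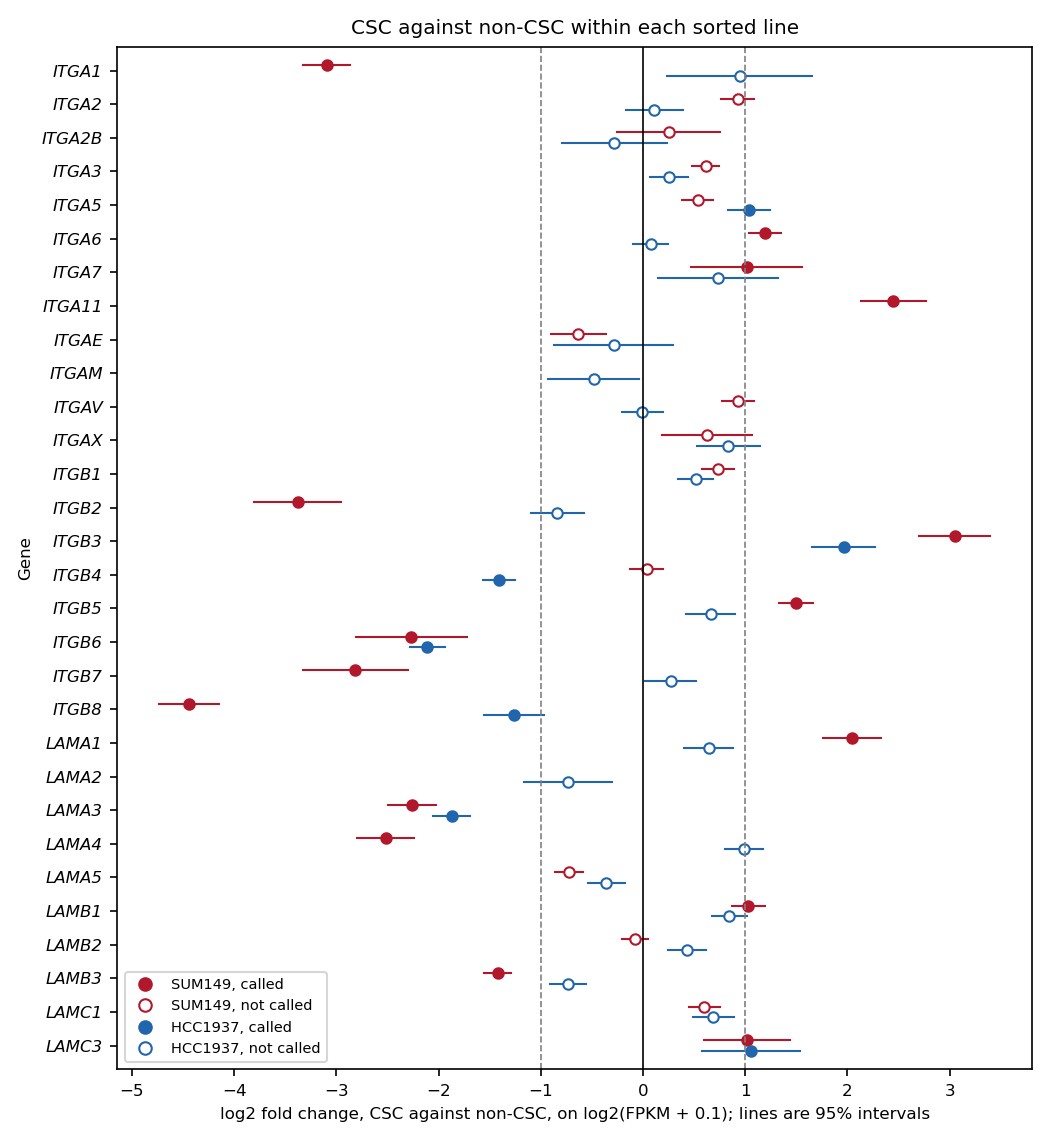
CSC effect of each gene tested, in log2 units, for SUM149 and HCC1937, with 95% intervals from limma, filled points for called genes and dashed lines at the size for a call. ITGB3 had an effect of 3.05 in SUM149 and 1.96 in HCC1937, and ITGB8 had −4.44 and −1.26.

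Promoter sequences are shown for the genes called lower in CSCs of both lines, since these moved together. RefSeq promoters of build GRCh38.p14, from 250 bases before to 50 bases after the start of transcription, were found for 26 of the 37 genes. ITGB3 and LAMC3 had no entry, nor did ITGA3, ITGA7, ITGA9, ITGAD, ITGAL, ITGAX, ITGB2, ITGB4 and LAMA1. Capitals mark the letters of 3 motifs searched on both strands: the AP-1 motif TGACTCA, which reads TGAGTCA on the other strand, the E-box CACCTG, with CAGGTG as its reverse complement, and the GC box GGGCGG, with CCGCCC as its reverse complement. The ITGB6 window lies on the minus strand at chr2:160200223-160200522, the ITGB8 window on the plus strand at chr7:20330650-20330949 and the LAMA3 window on the plus strand at chr18:23872770-23873069.
ITGB6: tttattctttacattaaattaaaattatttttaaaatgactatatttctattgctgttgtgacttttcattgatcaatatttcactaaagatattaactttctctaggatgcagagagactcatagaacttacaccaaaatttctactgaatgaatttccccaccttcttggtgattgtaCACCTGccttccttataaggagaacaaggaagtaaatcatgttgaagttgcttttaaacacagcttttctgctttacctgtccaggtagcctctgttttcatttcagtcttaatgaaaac
ITGB8: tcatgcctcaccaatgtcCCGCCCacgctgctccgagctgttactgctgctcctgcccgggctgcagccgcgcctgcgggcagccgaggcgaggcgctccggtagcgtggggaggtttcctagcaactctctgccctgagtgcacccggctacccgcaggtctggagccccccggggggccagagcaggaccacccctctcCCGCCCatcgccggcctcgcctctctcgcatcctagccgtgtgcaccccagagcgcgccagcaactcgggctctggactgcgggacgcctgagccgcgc
LAMA3: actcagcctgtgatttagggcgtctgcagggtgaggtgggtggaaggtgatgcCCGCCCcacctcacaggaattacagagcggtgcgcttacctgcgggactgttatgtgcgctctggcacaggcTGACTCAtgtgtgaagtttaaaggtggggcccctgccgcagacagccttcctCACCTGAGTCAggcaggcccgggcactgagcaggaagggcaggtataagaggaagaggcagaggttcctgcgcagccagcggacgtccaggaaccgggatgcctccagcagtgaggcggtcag
The ITGB6 window held 1 E-box, with a GC content of 31.7% and 0 CpG. That of ITGB8 held 2 GC boxes, with a GC content of 71.7% and 28 CpG. Its start lies 198 bases downstream of the first annotated base of the gene in GENCODE 29, and no transcript of that annotation starts within 100 bases of it. LAMA3 had 2 AP-1 matches, 1 E-box that overlaps an AP-1 match and 1 GC box, with a GC content of 61.7% and 13 CpG. The start used for LAMA3 lies 183577 bases downstream of the first annotated base of the gene, at the start of the shorter transcript LAMA3-207, so the window lies inside the gene. FPKM by gene does not separate the transcripts. Over all 35116 promoters of the table, 4.95% held the AP-1 letters, 20.6% the E-box and 45.0% the GC box. The 26 genes with an entry had 33 promoters, of which 3 (9.09%), 8 (24.2%) and 19 (57.6%) held these letters. ITGA5 and LAMB3 were the other genes with the AP-1 letters. A match describes the letters of a window and not the binding of a factor.

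Integrin alpha chains with high levels were ITGA3, a receptor chain for laminin, and ITGA5, the chain of the main fibronectin receptor. ITGA3 was listed at 159, 163 and 158 FPKM in SUM149 CSCs and 101, 106 and 107 in SUM149 non-CSCs. HCC1937 had 355, 349 and 354 FPKM of it in CSCs and 273, 310.4 and 305 in non-CSCs, and SUM159 had 127, 129.7 and 151. CSCs were above non-CSCs in both lines without overlap, and all HCC1937 libraries were above those of the other lines. The CSC effect was 0.61 ± 0.05 (SE, limma adjusted p = 0.000147) in SUM149 and 0.25 ± 0.07 (SE, limma adjusted p = 0.0584) in HCC1937, both short of the size required for a call. With a trend on GC content removed from each library it was 1.16 in SUM149, a call, and 0.48 in HCC1937. ITGA5 stood at 149, 156 and 148 FPKM in SUM149 CSCs and 98.8, 108 and 107 in SUM149 non-CSCs. Its HCC1937 values were 101, 98.1 and 94.0 FPKM in CSCs and 44.0, 51.5 and 47.5 in non-CSCs, and SUM159 values were 198, 213 and 234. Again CSCs were above non-CSCs in each line. SUM159 was above all sorted libraries in FPKM, but under SUM149 CSCs after TPM rescaling, at a log2 difference of −0.59. In HCC1937 the effect of 1.04 ± 0.08 (SE, limma adjusted p = 0.000761) was called, and without non-CSC replicate 1 it was 0.98 and no longer called. The SUM149 effect was 0.54 ± 0.06 (SE, limma adjusted p = 0.000475), and the difference between lines was −0.50 ± 0.10 (SE, limma adjusted p = 0.00137). With the GC trend removed these were 0.93 and −0.26.

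ITGA6 forms laminin receptors with ITGB1 or ITGB4, and the ITGA6 and ITGB4 pair anchors hemidesmosomes. SUM149 CSCs had 22.3, 21.0 and 21.5 FPKM of ITGA6 and non-CSCs 9.95, 9.13 and 9.13. In HCC1937, ITGA6 was at 62.8, 63.8 and 67.0 FPKM in CSCs and 59.0, 61.1 and 63.8 in non-CSCs. SUM159 libraries held 1.88, 2.08 and 2.47 FPKM. The fractions of SUM149 did not overlap and those of HCC1937 did, with SUM159 under all of them. Its CSC effect was 1.19 ± 0.06 (SE, limma adjusted p = 2.1e-05) in SUM149 and 0.07 ± 0.07 (SE, limma adjusted p = 0.473) in HCC1937, a difference between lines of 1.12 ± 0.08 (SE, limma adjusted p = 2.1e-06). ITGA2, a collagen receptor chain, was at 57.4, 51.0 and 54.9 FPKM in CSCs and 29.4, 28.1 and 28.1 in the non-CSCs of SUM149. Levels of ITGA2 in HCC1937 were 62.2, 70.2 and 74.1 FPKM in CSCs and 59.0, 60.6 and 71.7 in non-CSCs, with 0.590, 0.549 and 0.809 in SUM159. CSCs were higher in SUM149 without overlap, the HCC1937 fractions overlapped, and SUM159 was under 1 FPKM. Effects were 0.93 ± 0.07 (SE, limma adjusted p = 6.6e-05) in SUM149 and 0.11 ± 0.11 (SE, limma adjusted p = 0.522) in HCC1937. ITGAV, the alpha chain shared by the receptors that bind latent TGF-beta and vitronectin, was at 41.3, 37.5 and 37.9 FPKM in CSCs and 21.0, 20.2 and 19.96 in the non-CSCs of SUM149. The HCC1937 libraries had 33.7, 38.0 and 38.6 FPKM in CSCs and 35.8, 36.2 and 38.6 in non-CSCs, and SUM159 had 0.863, 0.980 and 1.53. As for ITGA2, only the fractions of SUM149 were apart, with effects of 0.93 ± 0.06 (SE, limma adjusted p = 5.62e-05) in SUM149 and −0.01 ± 0.08 (SE, limma adjusted p = 0.97) in HCC1937 and a difference between lines of 0.93 ± 0.10 (SE, limma adjusted p = 2.15e-05).

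ITGA1 and ITGA11 are both collagen receptor chains that pair with ITGB1. ITGA1 was listed at 1.75, 1.67 and 1.94 FPKM in CSCs and 16.8, 16.9 and 14.5 in the non-CSCs of SUM149. In HCC1937, ITGA1 was at 1.09, 1.62 and 1.15 FPKM in CSCs and 0.385, 0.859 and 0.665 in non-CSCs, and in SUM159 at 0.254, 0.315 and 0.380. Non-CSCs of SUM149 thus stood above all other libraries, and in HCC1937 CSCs were the higher fraction. The CSC effect was −3.10 ± 0.09 (SE, limma adjusted p = 3.8e-06) in SUM149 and 0.95 ± 0.29 (SE, limma adjusted p = 0.0625) in HCC1937, which differ by −4.04 ± 0.32 (SE, limma adjusted p = 3.05e-06). ITGA11 was at 1.22, 1.20 and 1.27 FPKM in SUM149 CSCs and 0.108, 0.139 and 0.191 in SUM149 non-CSCs. Both HCC1937 fractions were low, at 0.0685, 0.0390 and 0.0475 FPKM in CSCs and 0.0173, 0.0114 and 0.00689 in non-CSCs, and SUM159 had 3.50, 3.84 and 3.92. SUM159 was highest, followed by SUM149 CSCs, and CSCs were above non-CSCs in both lines without overlap. Its effect in SUM149 was 2.45 ± 0.13 (SE, limma adjusted p = 2.1e-05), and 0.96 with a constant of 1 in place of 0.1. It was under the minimum level in HCC1937. Over the sorted libraries the lines differed by 2.01 ± 0.16 (SE, limma adjusted p = 3.74e-06), but all HCC1937 values lie under the constant of 0.1, so this size depends on the constant. With a constant of 1 it was 0.91, not a call.

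Of the remaining alpha chains tested in SUM149, ITGA7, a laminin receptor chain of muscle, was called at 1.01 ± 0.22 (SE, limma adjusted p = 0.00695). This call rested on single libraries, with log2 differences of 0.82 without non-CSC replicate 1, 0.97 without non-CSC replicate 3 and 0.95 without CSC replicate 2. It was 1.54 with the GC trend removed. In HCC1937 the ITGA7 effect was 0.73 ± 0.24 (SE, limma adjusted p = 0.0758), and the difference between lines was 0.28 ± 0.34 (SE, limma adjusted p = 0.508). ITGAE and ITGA2B, chains known from lymphocytes and platelets, were tested in both lines and called in neither, with differences between lines of −0.35 ± 0.27 (SE, limma adjusted p = 0.299) and 0.53 ± 0.31 (SE, limma adjusted p = 0.162). ITGAL, an alpha chain of leukocytes, had group means of 0.00786 to 0.116 FPKM and passed the minimum in no comparison. ITGAM, which pairs with ITGB2 in myeloid cells, was tested in HCC1937 with an effect of −0.48 ± 0.18 (SE, limma adjusted p = 0.109).

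ITGAX, which also pairs with ITGB2, was listed at 0.358, 0.600 and 0.381 FPKM in CSCs and 0.231, 0.279 and 0.233 in the non-CSCs of SUM149. HCC1937 libraries were higher, at 4.69, 4.70 and 4.40 FPKM in CSCs and 2.23, 2.39 and 3.03 in non-CSCs, and SUM159 was at 0.0650, 0.0152 and 0.00760. CSCs were above non-CSCs in each line and the lines did not overlap. Neither effect reached the size for a call, at 0.63 ± 0.18 (SE, limma adjusted p = 0.02) in SUM149 and 0.84 ± 0.13 (SE, limma adjusted p = 0.00625) in HCC1937. Both were calls with the GC trend removed, at 1.08 and 1.01, and SUM149 also with quantile normalization, at 1.24. ITGB2, the beta chain of leukocyte integrins, was at 0.213, 0.373 and 0.222 FPKM in SUM149 CSCs and 3.47, 3.71 and 3.83 in SUM149 non-CSCs. In HCC1937, ITGB2 was at 3.52, 3.45 and 2.83 FPKM in CSCs and 6.25, 5.81 and 5.66 in non-CSCs, and in SUM159 at 0.510, 0.654 and 0.528. Here CSCs were the lower fraction in both lines, and the SUM149 CSCs were lower than SUM159 in FPKM. The log2 difference of SUM159 to SUM149 CSCs was 0.87, against 0.015 after TPM rescaling and 0.30 with the GC trend removed. The effect of −3.38 ± 0.17 (SE, limma adjusted p = 1.93e-05) in SUM149 was called and that of −0.84 ± 0.11 (SE, limma adjusted p = 0.00334) in HCC1937 was not, a difference between lines of −2.54 ± 0.21 (SE, limma adjusted p = 4.29e-06). Since these chains are typical of leukocytes, 6 leukocyte markers were read beside them. CD3E was at 0 in every library, and PTPRC, the defining surface protein of leukocytes, reached at most 0.0986 FPKM. CD53 reached at most 0.0418 FPKM and SPI1 at most 0.0679. The sum of the 6 was 4.50 and 52.6 FPKM in CSCs and non-CSCs of SUM149, 61.9 and 30.9 in HCC1937 and 72.1 in SUM159. CD14, the most abundant, made up 2.66, 51.3, 60.3, 30.3 and 18.7 FPKM of these sums in the same order. LAPTM5 was at 53.3 FPKM in SUM159. Whether CD14 or LAPTM5 and the leukocyte integrin chains come from the same cells was not tested. The 6 endothelial and platelet markers, with GP9 at 0, summed to 0.227, 3.08, 0.777, 0.884 and 0.288 FPKM, again in this order. For 5 stromal markers, led by COL1A1, the sums were 237, 68.6, 11.5, 6.86 and 43.8 FPKM. DCN, another of these, was at 1.80 FPKM in SUM149 CSCs and 16.2 in non-CSCs, against the order of the sums.

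Among integrin beta chains, ITGB1, the partner of most alpha chains, had the highest levels in the sorted groups, and ITGB4 in SUM159. ITGB1 was listed at 139.8, 133 and 134 FPKM in SUM149 CSCs and 86.9, 78.2 and 79.7 in SUM149 non-CSCs. HCC1937 CSCs had 416, 418 and 452 FPKM and HCC1937 non-CSCs 291.4, 297 and 311, whereas SUM159 had 4.65, 4.91 and 6.81. The groups did not overlap, with HCC1937 highest and SUM159 lowest. CSCs were higher by a log2 difference of 0.73 ± 0.06 (SE, limma adjusted p = 0.000154) in SUM149 and 0.51 ± 0.07 (SE, limma adjusted p = 0.00434) in HCC1937, under the size for a call. ITGB4, the hemidesmosome chain that pairs with ITGA6, was at 10.3, 9.89 and 9.96 FPKM in CSCs and 9.20, 9.91 and 10.4 in the non-CSCs of SUM149. In HCC1937, ITGB4 was at 19.9, 20.5 and 19.8 FPKM in CSCs and 51.6, 53.4 and 55.3 in non-CSCs, and the SUM159 libraries were at 76.2, 85.2 and 87.5. The SUM149 fractions overlapped (exact permutation p = 0.7), the HCC1937 CSCs were under the HCC1937 non-CSCs, and SUM159 was highest in FPKM. All genes summed to 634746 to 652082 FPKM in SUM159 and 330310 to 366532 in HCC1937 non-CSCs, so the order of these 2 groups depends on the scaling. After TPM rescaling SUM159 was above the CSCs of SUM149 and HCC1937 by 1.95 and 1.04. The CSC effect of ITGB4 was 0.04 ± 0.07 (SE, limma adjusted p = 0.646) in SUM149 and −1.41 ± 0.06 (SE, limma adjusted p = 0.000175) in HCC1937, a difference of 1.44 ± 0.08 (SE, limma adjusted p = 3.44e-07). With the GC trend removed the SUM149 effect was 0.59, at a limma adjusted p of 0.00024.

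ITGB3, ITGB5, ITGB6 and ITGB8 share ITGAV as their partner. ITGB3, located at chr17:47253846-47311816 of GRCh38, was listed at 32.2, 29.7 and 31.8 FPKM in CSCs and 3.52, 3.13 and 4.52 in the non-CSCs of SUM149. In HCC1937, ITGB3 was at 2.62, 2.63 and 2.99 FPKM in CSCs and 0.522, 0.692 and 0.686 in non-CSCs, and in SUM159 at 2.89, 3.59 and 2.91. CSCs were above non-CSCs in both lines without overlap, and SUM149 CSCs were above all other libraries. The effect was 3.05 ± 0.14 (SE, limma adjusted p = 1.34e-05) in SUM149 and 1.96 ± 0.12 (SE, limma adjusted p = 0.000414) in HCC1937. These differ by 1.09 ± 0.19 (SE, limma adjusted p = 0.000783), a call that was lost without SUM149 non-CSC replicate 2 (0.97), with a constant of 0.01 (0.97) and after TPM rescaling (0.93). ITGB5 was called in SUM149 at 1.50 ± 0.07 (SE, limma adjusted p = 1.16e-05), from a mean of 9.53 ± 0.604 FPKM (SD, n = 3) in non-CSCs to 27.1 ± 0.449 in CSCs. In HCC1937 it was not called, at 0.66 ± 0.10 (SE, limma adjusted p = 0.0056), with a difference between lines of 0.83 ± 0.11 (SE, limma adjusted p = 0.000133).

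ITGB6, an epithelial chain located at chr2:160099666-160200313, was at 0.384, 0.256 and 0.319 FPKM in CSCs and 2.54, 1.46 and 1.86 in the non-CSCs of SUM149. In HCC1937, ITGB6 was at 1.97, 2.07 and 1.87 FPKM in CSCs and 9.07, 8.66 and 8.80 in non-CSCs, and it was listed at 0 in all 3 SUM159 libraries. CSCs were the lower fraction in both lines without overlap. The effect was −2.27 ± 0.22 (SE, limma adjusted p = 0.00023) in SUM149 and −2.11 ± 0.07 (SE, limma adjusted p = 0.000128) in HCC1937, with a difference between lines of −0.16 ± 0.24 (SE, limma adjusted p = 0.605). ITGB8, at chr7:20330702-20415754, was listed at 0.578, 0.441 and 0.541 FPKM in SUM149 CSCs and 13.7, 14.4 and 11.9 in SUM149 non-CSCs. HCC1937 had 1.13, 0.952 and 1.22 FPKM of ITGB8 in CSCs and 2.92, 2.48 and 2.94 in non-CSCs, and SUM159 had 0.0415, 0.0417 and 0.0386. Non-CSCs were again higher in both lines, and those of SUM149 exceeded all other libraries. Its effect of −4.44 ± 0.12 (SE, limma adjusted p = 2.99e-06) in SUM149 was the most negative of the 28 genes tested there. In HCC1937 it was −1.26 ± 0.12 (SE, limma adjusted p = 0.00124), and −0.85 with a constant of 1, and the lines differed by −3.18 ± 0.17 (SE, limma adjusted p = 2.45e-07).

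ITGB7, a beta chain of lymphocyte homing receptors, was at 0.0251, 0.0421 and 0.116 FPKM in CSCs and 0.954, 1.02 and 1.03 in the non-CSCs of SUM149. In HCC1937, ITGB7 was at 0.231, 0.244 and 0.180 FPKM in CSCs and 0.176, 0.154 and 0.158 in non-CSCs, and SUM159 was at 0.0239, 0.0254 and 0.0127. Only the SUM149 non-CSCs came near 1 FPKM. The SUM149 effect was −2.81 ± 0.21 (SE, limma adjusted p = 7.49e-05), the HCC1937 effect 0.27 ± 0.10 (SE, limma adjusted p = 0.109) and their difference −3.09 ± 0.24 (SE, limma adjusted p = 2.91e-06). The genes called in both lines are plotted by library.

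**Figure D3:**
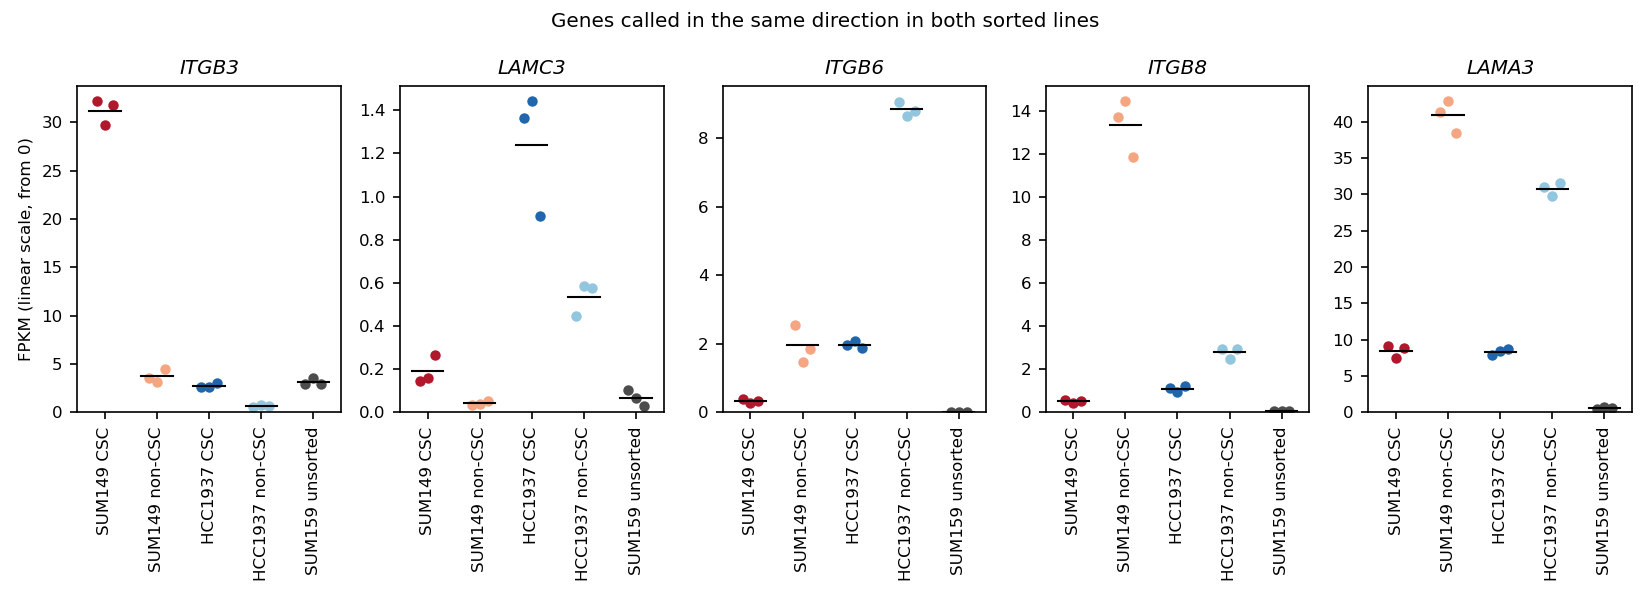
Levels by library, in FPKM on linear axes that start at 0, of the 5 genes called in the same direction in both sorted lines, with each point 1 library and bars at group means. ITGB3 and LAMC3 were higher in CSCs of both lines, ITGB6, ITGB8 and LAMA3 were lower, and ITGB6 was at 0 in SUM159.

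Of the laminin alpha chains, LAMA5 had the highest mean in every group. LAMA3, the alpha chain of the laminin of epithelial basement membranes, lies at chr18:23689443-23956222 and was listed at 9.06, 7.52 and 8.85 FPKM in CSCs and 41.4, 42.8 and 38.5 in the non-CSCs of SUM149. In HCC1937, LAMA3 was at 7.81, 8.46 and 8.77 FPKM in CSCs and 31.1, 29.7 and 31.6 in non-CSCs, and SUM159 was at 0.467, 0.678 and 0.570. CSCs were lower in both lines, while the CSC fractions of the lines overlapped each other. The effect was −2.26 ± 0.09 (SE, limma adjusted p = 9.4e-06) in SUM149 and −1.87 ± 0.07 (SE, limma adjusted p = 0.000136) in HCC1937, and the difference between lines was −0.39 ± 0.12 (SE, limma adjusted p = 0.0153). LAMA5, the widespread alpha chain of basement membranes, was at 44.2, 42.8 and 42.0 FPKM in SUM149 CSCs and 68.8, 72.0 and 72.6 in SUM149 non-CSCs. HCC1937 CSCs were at 44.7, 46.3 and 45.7 FPKM and non-CSCs at 54.9, 58.6 and 62.0, with SUM159 at 25.7, 36.1 and 34.3. CSCs were the lower fraction in both lines, and SUM159 was under all sorted libraries. Effects were −0.73 ± 0.06 (SE, limma adjusted p = 8.56e-05) in SUM149 and −0.36 ± 0.07 (SE, limma adjusted p = 0.0172) in HCC1937, short of a call. With the GC trend removed they were −0.19 in SUM149 and −0.09 in HCC1937, the latter at a limma adjusted p of 0.527. LAMA4, an alpha chain best known from vessels and muscle, was at 0.0512, 0.0481 and 0.0813 FPKM in CSCs and 0.842, 0.723 and 0.881 in the non-CSCs of SUM149. In HCC1937, LAMA4 was at 8.42, 9.43 and 9.16 FPKM in CSCs and 4.33, 4.48 and 4.64 in non-CSCs, and in SUM159 at 0.00398, 0.0214 and 0. CSCs were the lower fraction in SUM149 and the higher fraction in HCC1937, without overlap in either. The CSC effect was −2.52 ± 0.11 (SE, limma adjusted p = 1.21e-05) in SUM149 and 0.99 ± 0.07 (SE, limma adjusted p = 0.000627) in HCC1937, and these differ by −3.51 ± 0.13 (SE, limma adjusted p = 2.89e-08). LAMA1, an alpha chain of early development, was called in SUM149 at 2.05 ± 0.11 (SE, limma adjusted p = 2.61e-05), where CSCs were at 1.02 ± 0.0736 FPKM (SD, n = 3) and non-CSCs at 0.172 ± 0.0347. In HCC1937 LAMA1 was not called, at 0.64 ± 0.10 (SE, limma adjusted p = 0.00653), and the lines differed by 1.41 ± 0.15 (SE, limma adjusted p = 2.7e-05). With a constant of 0.01 (1.17) and after TPM rescaling (1.05), LAMA1 was called in HCC1937 as well. LAMA2, the muscle chain, had group means of 0.00878 to 0.285 FPKM. Between CSCs and non-CSCs of a line it was tested in HCC1937 only, at −0.74 ± 0.17 (SE, limma adjusted p = 0.0296).

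LAMB3, the beta chain that joins LAMA3 in the epithelial laminin, reached the highest group mean of the 37 genes. It was listed at 188, 185 and 179 FPKM in SUM149 CSCs and 484, 504 and 487 in SUM149 non-CSCs. In HCC1937, LAMB3 was at 178, 171 and 165 FPKM in CSCs and 279, 300.3 and 276 in non-CSCs, and in SUM159 at 48.0, 52.6 and 53.1. CSCs were lower in both lines without overlap, and SUM159 was lowest. The effect was −1.42 ± 0.05 (SE, limma adjusted p = 7.07e-06) in SUM149, or −0.91 and no longer called with the GC trend removed, and −0.73 ± 0.07 (SE, limma adjusted p = 0.00134) in HCC1937, where it was not called. The lines differed by −0.69 ± 0.08 (SE, limma adjusted p = 4.05e-05), or by −0.38 with the GC trend removed. LAMB2, the beta chain of muscle and kidney basement membranes, was at 58.6, 57.6 and 56.6 FPKM in CSCs and 59.8, 60.7 and 61.9 in the non-CSCs of SUM149. HCC1937 had 56.0, 54.3 and 54.5 FPKM of LAMB2 in CSCs and 37.8, 43.2 and 41.2 in non-CSCs, and SUM159 had 97.2, 108 and 111. CSCs were slightly under non-CSCs in SUM149 and above them in HCC1937. SUM159 was above both lines in FPKM, but not after TPM rescaling, with log2 differences of −0.22 to SUM149 and −0.07 to HCC1937 CSCs. With upper quartile scaling it was called higher in SUM159, at 1.13 and 1.38. Effects were −0.08 ± 0.05 (SE, limma adjusted p = 0.207) in SUM149, or 0.45 with the GC trend removed, and 0.43 ± 0.08 (SE, limma adjusted p = 0.0104) in HCC1937. LAMB1, the most widespread beta chain, was called higher in SUM149 CSCs at 1.03 ± 0.07 (SE, limma adjusted p = 4.18e-05), and was at 0.98 without non-CSC replicate 2. In HCC1937 its effect was 0.84 ± 0.07 (SE, limma adjusted p = 0.000831), a difference between lines of 0.19 ± 0.09 (SE, limma adjusted p = 0.0885).

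LAMC1 is the gamma chain of most laminins. SUM149 CSCs had 57.8, 52.2 and 54.8 FPKM of it and SUM149 non-CSCs 36.6, 35.4 and 36.5. In HCC1937, LAMC1 was at 95.4, 102 and 105 FPKM in CSCs and 58.8, 62.0 and 67.0 in non-CSCs, and SUM159 was at 5.64, 6.20 and 7.15. CSCs were higher in both lines and SUM159 was lowest. Effects were 0.60 ± 0.06 (SE, limma adjusted p = 0.000281) in SUM149 and 0.69 ± 0.08 (SE, limma adjusted p = 0.00266) in HCC1937, under the size for a call. LAMC3, a gamma chain of low abundance at chr9:131009082-131094473, was listed at 0.143, 0.157 and 0.266 FPKM in CSCs and 0.0322, 0.0392 and 0.0501 in the non-CSCs of SUM149. In HCC1937, LAMC3 was at 1.36, 1.44 and 0.909 FPKM in CSCs and 0.448, 0.585 and 0.577 in non-CSCs, and in SUM159 at 0.101, 0.0641 and 0.0297. CSCs were higher in both lines without overlap, at levels under 2 FPKM throughout. The effect was 1.02 ± 0.17 (SE, limma adjusted p = 0.00231) in SUM149 and 1.05 ± 0.19 (SE, limma adjusted p = 0.0124) in HCC1937, with a difference between lines of −0.04 ± 0.27 (SE, limma adjusted p = 0.914). With the GC trend removed the SUM149 effect was 1.57. Both calls rested on single libraries. In SUM149 the effect was 0.97 without non-CSC replicate 1 and 0.83 without CSC replicate 3. In HCC1937 it was 0.95 without non-CSC replicate 1, 0.98 without CSC replicate 1 and 0.94 without CSC replicate 2, and none of these was called.

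Since chains compete for shared partners, each chain was also expressed as a percentage of the summed FPKM of its group, a measure that does not change when a library is multiplied by a factor. ITGB1, which also pairs with ITGAV and with most other alpha chains, is left out of the ITGAV partners here. Of ITGB3, ITGB5, ITGB6 and ITGB8, ITGB3 made up 52.8% ± 0.620 (SD, n = 3) in SUM149 CSCs and 13.04% ± 2.54 in SUM149 non-CSCs. In HCC1937 the ITGB3 share was 4.80% ± 0.713 in CSCs and 1.41% ± 0.182 in non-CSCs. ITGB5 made up 45.8% ± 0.805 and 33.4% ± 2.29 in CSCs and non-CSCs of SUM149 and 89.9% ± 1.13 and 72.7% ± 1.71 in HCC1937. The share of ITGB6 was 0.540% ± 0.0937 in CSCs and 6.83% ± 1.87 in non-CSCs of SUM149, beside 3.43% ± 0.288 and 19.7% ± 1.12 in HCC1937. ITGB8 accounted for 0.878% ± 0.0938 in SUM149 CSCs and 46.8% ± 4.58 in SUM149 non-CSCs, and for 1.92% ± 0.309 and 6.20% ± 0.760 in HCC1937. CSCs of both lines thus had larger shares of ITGB3 and ITGB5 and smaller shares of ITGB6 and ITGB8, without overlap between fractions. The leading chain of these 4 differed, being ITGB3 in SUM149 CSCs, ITGB8 in SUM149 non-CSCs and ITGB5 in both HCC1937 fractions and in SUM159 (89.4% ± 1.18).

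Of the 5 laminin alpha chains, LAMA3 made up 16.1% ± 1.30 in CSCs and 36.1% ± 1.62 in non-CSCs of SUM149, and 13.2% ± 0.487 and 32.8% ± 1.32 in HCC1937. The LAMA5 share was 81.7% ± 1.33 and 62.9% ± 1.56 in the SUM149 fractions and 72.1% ± 0.819 and 62.1% ± 1.36 in those of HCC1937. LAMA4 reached 14.2% ± 0.430 in HCC1937 CSCs and 4.77% ± 0.0495 in HCC1937 non-CSCs, against 0.115% ± 0.0362 and 0.722% ± 0.0860 in SUM149. Among the laminin beta chains, LAMB3 made up 64.8% ± 0.251 in CSCs and 85.8% ± 0.488 in non-CSCs of SUM149, and 66.4% ± 0.655 and 83.0% ± 0.703 in HCC1937. For LAMB1 the shares were 14.9% ± 0.148 in CSCs and 3.60% ± 0.272 in non-CSCs of SUM149, and 12.3% ± 0.539 and 5.16% ± 0.264 in HCC1937. LAMB2 made up 20.3% ± 0.109 and 10.6% ± 0.233 in SUM149 CSCs and non-CSCs, and 21.3% ± 0.401 and 11.9% ± 0.506 in HCC1937. The chains of the epithelial laminin, LAMA3 and LAMB3, therefore had smaller shares in CSCs of both lines. In SUM159 the shares were 97.3% ± 0.101 for LAMA5, 1.74% ± 0.105 for LAMA3, 62.3% ± 0.408 for LAMB2, 30.4% ± 0.562 for LAMB3 and 7.35% ± 0.883 for LAMB1. Of the summed ITGB1 and ITGB4, ITGB4 made up 6.90% ± 0.0269 in CSCs and 10.8% ± 1.05 in non-CSCs of SUM149, 4.48% ± 0.249 and 15.1% ± 0.101 in HCC1937 and 93.9% ± 0.951 in SUM159. All of these shares were apart between CSCs and non-CSCs in both lines, at the smallest exact permutation p of 0.10. A share also moves when another chain of its sum moves, so it does not show a change of the chain itself. In SUM149 the FPKM of ITGB4 overlapped between fractions. LAMA5 in both lines and LAMB2 in SUM149 had lower FPKM but larger shares in CSCs. Chains of a sum also differ in GC content, with 63.7% for ITGB4 and 40.0% for ITGB1, and 66.4% for LAMA5 and 50.7% for LAMA3. The differences to SUM159 moved with GC content, as described below. The SUM159 shares, here and for the ITGAV partners, were not corrected for this.

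**Figure D4:**
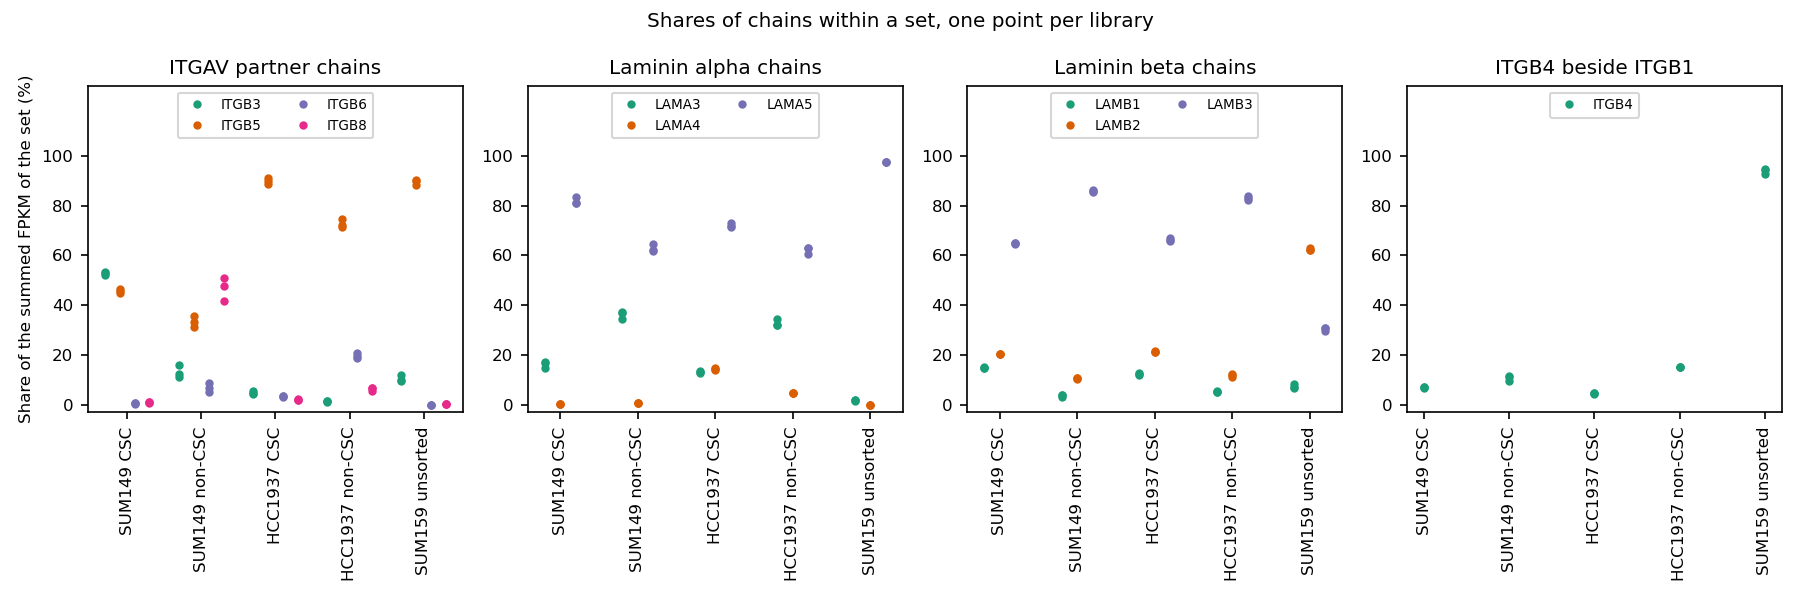
Share of each chain in the summed FPKM of the ITGAV partners, the laminin alpha chains, the laminin beta chains and the ITGB1 and ITGB4 pair, in percent, with each point 1 library of the 5 groups and chains of small share left out. ITGB8 held 46.8% of the ITGAV partners in SUM149 non-CSCs and 0.878% in SUM149 CSCs.

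The difference of the CSC effect between lines was tested over the 12 sorted libraries for 30 of the 37 genes. The difference, SUM149 minus HCC1937, was called above 0 for 5 (16.7%), against 12.2% of the 16451 genes tested, and below 0 for 5 (16.7%), against 18.2%. The median difference was 0.07, beside −0.08 for all genes. Integrin alpha chains had 2 calls above and 1 below of 12, integrin beta chains 2 and 3 of 8, and laminin chains 1 and 1 of 10. Those above were ITGA11, ITGB4, LAMA1, ITGA6 and ITGB3, and those below were ITGA1, LAMA4, ITGB8, ITGB7 and ITGB2. Of all genes called, 40.2% were above and 50.7% after quantile normalization, which moved the median of all genes by 0.14. With a constant of 1, ITGA11, ITGB7 (−0.98) and LAMA1 (0.67) lost their calls. With no limit on size, 19 of the 30 passed, beside 10053 of the 16451 genes tested. Removal of the GC trend gave 12 calls, with ITGAV (1.004) and ITGB5 (1.07) added, and quantile normalization added ITGA2B (1.07).

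Genes that work with integrins were read from lists beside the 37. For all genes tested, the share called higher and lower was 12.8% and 22.1% in SUM149 with a median of −0.11, 2.71% and 6.0% in HCC1937 with a median of −0.03, and 12.2% and 18.2% for the difference between lines with a median of −0.08. Of 7 hemidesmosome and tetraspanin genes, all tested, 1 was called higher and 1 lower in SUM149 CSCs, with a median log2 difference of 0.49. DST, a linker of hemidesmosomes to keratin, was at 1.85 ± 0.09 (SE, limma adjusted p = 1.5e-05) and CD9, a tetraspanin bound to integrins, at −3.14 ± 0.08 (SE, limma adjusted p = 2.95e-06). In HCC1937 the counts were 0 higher and 3 lower with a median of −0.11, the lower genes being the hemidesmosome collagen COL17A1 (−1.58) and the tetraspanins CD82 (−1.04) and CD9 (−1.03). The difference between lines was called for 5 of these 7, 4 above and 1 below, with a median of 1.02. Of 27 adaptor and kinase genes in the table, 26 were tested in SUM149, with 8 higher and 2 lower in CSCs and a median of 0.32. Higher were TLN2 (2.10) and TLN1 (1.31), the talins that bind beta chains, and also TGFB1I1 (1.76), LIMS1 (1.73), PARVB, BCAR1, PXN and the kinase SRC. The lower genes were TNS4 (−4.45), a short tensin of epithelia, and LIMS2 (−1.21). In HCC1937, 2 of 26 were higher, LIMS2 (1.55) and TGFB1I1 (1.01), and TNS4 (−1.74) was lower, with a median of 0.25. LIMS2 thus had opposite signs in the lines, a difference of −2.76 ± 0.36 (SE, limma adjusted p = 8.93e-05). The difference between lines was called for 11 of the 26, 7 above and 4 below. Of other matrix receptors and basement membrane genes, 6 of 14 were higher and 2 lower in SUM149 CSCs, with a median of 0.43. The higher ones were the collagen chains COL4A6 (2.74), COL4A5 (1.75), COL4A1 (1.73) and COL4A2 (1.30), with HSPG2 and SDC2, and the lower ones were NID2 (−4.00) and BCAM (−1.18). In HCC1937, 3 of 13 were higher and 0 lower with a median of 0.10, namely NID1 (2.17), COL4A1 (1.68) and COL4A2 (1.48). The difference between lines was called for 3 above and 2 below of 14.

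HCC1937 was next compared with SUM149 within each fraction. These comparisons use the same libraries as the comparisons of CSCs with non-CSCs, so no overlap between them is read. In CSCs, 29 of the 37 genes were tested, and 10 were called higher in HCC1937 (34.5%), against 26.1% of the 15952 genes tested, and 3 lower (10.3%), against 17.7%. The median log2 difference was 0.34, beside 0.24 for all genes, a median that moved by −0.181 with upper quartile scaling and by −0.175 with quantile normalization. Integrin alpha chains had 4 higher and 1 lower of 12, integrin beta chains 4 and 1 of 8, and laminin chains 2 and 1 of 9. Of the higher genes LAMA4 differed most at 5.83 ± 0.10 (SE, limma adjusted p = 5.85e-07), then ITGB2 at 3.21 ± 0.19 (SE, limma adjusted p = 2.56e-05) and ITGAX at 3.13 ± 0.17 (SE, limma adjusted p = 2.02e-05). ITGB6, LAMC3 and ITGAM were higher by 2.31, 2.21 and 1.98, and the laminin receptor chains ITGB1, ITGA6 and ITGA3 by 1.66, 1.57 and 1.14. ITGA3 was at 0.94 with upper quartile scaling and at 0.80 with the GC trend removed, and called in neither. A constant of 1 lost the calls of ITGAM (0.50), LAMC3 (0.91), LAMA1 (−0.80) and ITGB7 (0.20). ITGB7, at 1.02, was no longer called without SUM149 CSC replicate 1 (0.86) or 2 (0.95), without HCC1937 CSC replicate 1 (0.99) or 2 (0.96), with upper quartile or quantile scaling, or with the GC trend removed (0.69). Lower in HCC1937 were ITGB3 at −3.46 ± 0.08 (SE, limma adjusted p = 1.16e-06), ITGA11 at −3.14 ± 0.09 (SE, limma adjusted p = 2e-06) and LAMA1 at −2.11 ± 0.08 (SE, limma adjusted p = 4.24e-06).

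In non-CSCs, 29 genes were tested, with 12 called higher in HCC1937 (41.4%), against 22.0% of the 16433 genes tested, and 5 lower (17.2%), against 20.7%. The median was 0.74, beside 0.10 for all genes, and upper quartile scaling moved the latter by −0.195 and TPM rescaling by −0.159. By family there were 5 higher and 2 lower of 11 integrin alpha chains, 4 and 3 of 8 integrin beta chains, and 3 and 0 of 10 laminin chains. The higher genes were led by ITGAX at 2.92 ± 0.13 (SE, limma adjusted p = 9e-06), ITGA6 at 2.69 ± 0.07 (SE, limma adjusted p = 1.85e-06), ITGAM at 2.57 ± 0.23 (SE, limma adjusted p = 0.000137) and ITGB4 at 2.43 ± 0.07 (SE, limma adjusted p = 2.63e-06). The others were LAMA4 (2.33), LAMC3 (2.17), ITGB6 (2.16), ITGB1 (1.88), ITGB5 (1.77), ITGA3 (1.50), ITGA2 (1.15) and LAMA2 (1.002). ITGA2 was no longer called with upper quartile (0.94), quantile (0.96) or TPM scaling (0.99). LAMA2 was no longer called with upper quartile scaling, with the GC trend removed (0.99), or without non-CSC replicate 1 or 2 of HCC1937 (0.95, 0.99) or replicate 1 or 3 of SUM149 (0.94, 0.97). Lower in HCC1937 were ITGA1 at −4.51 ± 0.25 (SE, limma adjusted p = 2.01e-05), ITGB3 at −2.37 ± 0.17 (SE, limma adjusted p = 4.88e-05), ITGB8 at −2.22 ± 0.11 (SE, limma adjusted p = 1.21e-05), ITGB7 at −2.07 ± 0.07 (SE, limma adjusted p = 3.38e-06) and ITGA5 at −1.13 ± 0.08 (SE, limma adjusted p = 5.82e-05). A constant of 1 lost the calls of ITGAM (0.73), LAMC3 (0.56), ITGB7 (−0.78) and LAMA2 (0.23).

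Unsorted SUM159 was set beside the CSCs of the sorted lines, since its libraries carry the CSC label. Line and sorting cannot be told apart here, and both comparisons share the SUM159 libraries. Against SUM149 CSCs, 26 of the 37 genes were tested, with 3 called higher in SUM159 (11.5%), against 21.3% of the 14976 genes tested, and 14 lower (53.8%), against 45.6%. The median was −1.65, beside −0.76 for all genes. Integrin alpha chains had 2 higher and 5 lower of 11, integrin beta chains 1 and 4 of 7, and laminin chains 0 and 5 of 8. Of all genes called, 31.8% were higher, 50.9% after quantile normalization and 12.1% after TPM rescaling. These moved the median of all genes by 0.80 and −1.07, and upper quartile scaling moved it by 0.23. For the integrin and laminin genes the share of higher calls was 17.6%, 29.4% after quantile normalization and 5% after TPM rescaling. Against HCC1937 CSCs, 29 genes were tested, with 4 higher in SUM159 (13.8%), against 18.5% of the 15515 genes tested, and 18 lower (62.1%), against 48.3%. Here the median was −1.72, beside −0.97 for all genes. By family the counts were 3 higher and 7 lower of 12 integrin alpha chains, 1 and 5 of 8 integrin beta chains, and 0 and 6 of 9 laminin chains. Among all genes called, 27.6% were higher, 49.2% after quantile normalization and 13% after TPM rescaling, with moves of the median of 0.96 and −0.99, and of 0.39 with upper quartile scaling. That share was 18.2% among the integrin and laminin genes with 28.6% after quantile normalization and 8.7% after TPM rescaling.

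ITGB1, ITGA2 and ITGAV were under 10 FPKM in every SUM159 library and above 30 FPKM in every CSC library of both sorted lines. ITGA2 was at −6.20 ± 0.14 (SE, limma adjusted p = 2.53e-07) against SUM149 and −6.54 ± 0.15 (SE, limma adjusted p = 2.09e-07) against HCC1937. ITGB1 was at −4.63 ± 0.15 (SE, limma adjusted p = 6.25e-07) and −6.29 ± 0.16 (SE, limma adjusted p = 2.33e-07), and ITGAV at −5.03 ± 0.20 (SE, limma adjusted p = 1.26e-06) and −4.95 ± 0.21 (SE, limma adjusted p = 1.29e-06). LAMA4 was lower against HCC1937 at −6.40 ± 0.11 (SE, limma adjusted p = 1.37e-07), as was ITGAX at −5.21 ± 0.17 (SE, limma adjusted p = 5.32e-07). ITGB4 was higher in SUM159 at 3.03 ± 0.08 (SE, limma adjusted p = 3.42e-07) against SUM149 and 2.04 ± 0.09 (SE, limma adjusted p = 1.6e-06) against HCC1937. ITGA11 was also higher, at 1.53 ± 0.07 (SE, limma adjusted p = 2.73e-06) and 4.67 ± 0.11 (SE, limma adjusted p = 2.02e-07), as was ITGA7 at 1.54 and 1.72. ITGA5 was called higher against HCC1937 only, at 1.13 ± 0.10 (SE, limma adjusted p = 3.85e-05), with 0.50 ± 0.08 (SE, limma adjusted p = 0.00142) against SUM149. After TPM rescaling, ITGA11 and ITGA7 were at 0.51 and 0.54 against SUM149, ITGA5 and ITGA7 were at 0.13 and 0.81 against HCC1937, and none of these was called. Quantile normalization ended the calls of ITGA5 (0.48), ITGA1 (−0.06), ITGAM (−0.91), ITGB2 (−0.60) and ITGB7 (−0.18) against HCC1937, and of ITGA1 (−0.70) and LAMA1 (−0.13) against SUM149. Upper quartile scaling ended those of ITGA3 (−0.93) and LAMB1 (−0.91) against HCC1937. A constant of 1 ended those of ITGA1, ITGAM and ITGB7 against HCC1937 and of ITGAX, ITGB6, ITGB8 and LAMA1 against SUM149. Calls were also gained. TPM rescaling added ITGAE, ITGB5 and LAMA5 as lower against both lines, and ITGA3 and LAMC3 against SUM149. Quantile normalization added ITGA2B as higher against both, ITGB2 as higher against SUM149, and ITGB3 and LAMA1 as higher and ITGB5 as lower against HCC1937. Upper quartile scaling added LAMB2 as higher against both and ITGB2 (1.08) as higher against SUM149. ITGB6, listed at 0 in SUM159, is counted among the lower genes.

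The differences to SUM159 moved with base composition. Across genes whose mean level was 1 FPKM or more, the log2 difference of SUM159 to SUM149 CSCs had a Spearman correlation of 0.638 with the GC content of the transcript (10993 genes), and 0.710 over 23 of the integrin and laminin genes. For HCC1937 CSCs it was 0.579 (11116 genes) and 0.603 (24 genes). Genes measured in the same libraries are not independent replicates, and these values are a description. In SUM149 and HCC1937 CSCs against their non-CSCs the same correlation over all genes was −0.12 and −0.19. SUM159 also had 8534 to 8670 genes over 1 FPKM, where the sorted libraries had 11249 to 11997. With a smooth trend on GC content removed from each library, ITGA2 was at −3.74 against SUM149 and −4.01 against HCC1937. In the same order ITGB1 was at −2.14 and −3.73, ITGB4 at 2.35 and 1.73, and ITGA11 at 2.04 and 5.32. ITGAV was at −2.36 and LAMA3 at −3.37 against SUM149. ITGA7 was not called against SUM149, at 0.97. ITGA1 changed sign, to 0.44 against SUM149 and 0.96 against HCC1937, neither a call. In FPKM its SUM159 libraries were under every CSC library of both sorted lines. Against HCC1937, LAMB1 went from −1.36 to −0.69 and was no longer called. For ITGB6, ITGB7, ITGB8, LAMA4, ITGAM and ITGAX, whose SUM159 levels lie under the constant of 0.1, the correction acts on the constant. The same applies to LAMC3, with a SUM159 mean of 0.0649 FPKM. Corrected values of these genes are therefore not read as levels, though the counts that follow include those called. The counts became 2 higher and 13 lower against SUM149 and 5 higher and 15 lower against HCC1937, or 13.3% and 25% higher among the calls. Of all genes called after the correction, 50.1% and 48.4% were higher. Whether the trend is a property of the libraries or of the lines was not tested.

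**Figure D5:**
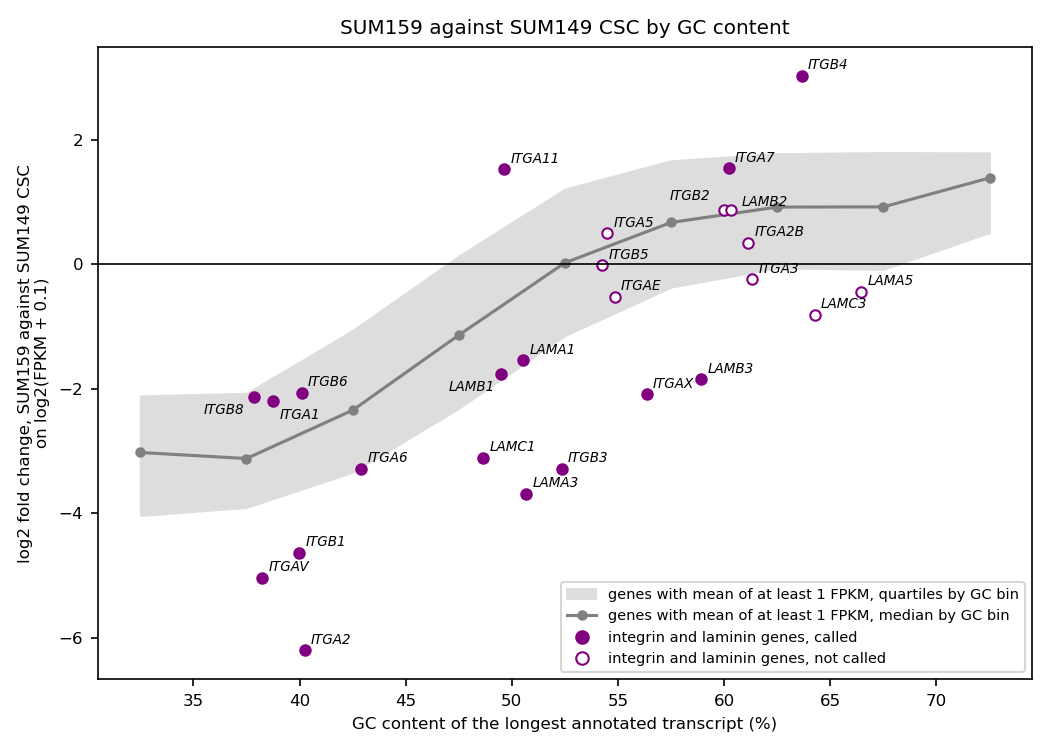
Log2 difference of SUM159 to SUM149 CSCs against the GC content of the longest transcript in percent, with a line and band for the median and quartiles of all genes whose mean level was 1 FPKM or more and the integrin and laminin genes as named points, filled where called. The median was −3.02 at a GC content of 30 to 35% and 1.39 at 70 to 75%, with ITGA2 at −6.20 and ITGB4 at 3.03.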

How the data were processed

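The authors deposited FPKM values of 33158 genes for 15 mRNA libraries, sequenced on a HiSeq instrument, with 1 column for each library. The submitters' processing notes name Bowtie2 and GRCh38, and the quantification tool is not given in the sources used here. Between CSC replicates 1 and 2 of SUM149, 14 of 790 low genes shared the most frequent ratio of their values. No common step of whole reads was read from the values, and depth is not given here. Low values may rest on few fragments. Libraries were grouped by the line and fraction in their labels. FPKM was analysed as log2(FPKM + 0.1) in genes whose mean level over the libraries fitted was 0.1 FPKM or more, with limma 3.58.1 (lmFit and eBayes) in R 4.3.3 and Benjamini-Hochberg adjustment over all genes tested. Each comparison was fitted on its own 6 libraries, and the difference of the CSC effect between lines as an interaction over 12. The fits were tested on simulated data, but the outcome is not reported here and no statement rests on it. Named genes were the 8 with the highest group mean, those called in both lines and those with the largest called differences in each comparison. The members and lists were chosen with earlier results of these data known. Promoters came from RefSeq (GRCh38.p14), and gene positions and GC content from GENCODE 29, matched by symbol for 24442 genes (73.7%) and all 37 members. Alternatives were constants of 0.01 and 1, other minimum levels, TPM, quantile and upper quartile scaling, a trended and robust eBayes, 1 fit over 15 libraries, the replicate number as a block, other limits, leaving out each library, and removal of a spline trend on GC content with 5 degrees of freedom, which was chosen after seeing the data. TNS2 was not analysed here. The result for another listed gene is not reported here. Python 3.11.15, pandas 2.3.3, numpy 2.4.6 and matplotlib 3.10.9 were used.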

Additional observations from a re-analysis of the deposited data

Results flagged for a closer look

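The CSC effect of 10 genes differed between the sorted lines, given here as the effect in SUM149 minus that in HCC1937 on the log2 scale with limma's adjusted p. They were 10 of 30 tested, 16.7% above 0 and 16.7% below, against 12.2% and 18.2% of all genes. The difference was positive for ITGA11 at 2.01 (3.74e-06), ITGB4 at 1.44 (3.44e-07), LAMA1 at 1.41 (2.7e-05), ITGA6 at 1.12 (2.1e-06) and ITGB3 at 1.09 (0.000783). The difference was negative for ITGB2 at −2.54 (4.29e-06), ITGB7 at −3.09 (2.91e-06), ITGB8 at −3.18 (2.45e-07), LAMA4 at −3.51 (2.89e-08) and ITGA1 at −4.04 (3.05e-06). With a constant of 1 in place of 0.1, ITGA11 at 0.91, ITGB7 at −0.98 and LAMA1 at 0.67 lost their calls. ITGB3 lost its call without SUM149 non-CSC replicate 2 (0.97), with a constant of 0.01 (0.97) and after TPM rescaling (0.93).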

How the results depend on the processing

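Counts are of integrin and laminin genes called. In SUM149 there were 16, against 9 with a constant of 1, 10 at a minimum mean of 1 FPKM and 25 with no fold change limit. In HCC1937 there were 7, against 10 with a constant of 0.01 and 19 with no fold change limit. At an adjusted p of at most 0.0001 in limma, 0 of these genes and 0 of all 15582 genes tested in HCC1937 were called. An unadjusted p under 0.05 was found there for 24 of these genes and 5886 of all genes. The difference between lines had 10 calls and 19 with no fold change limit. HCC1937 against SUM149 gave 13 in CSCs, 8 at a minimum mean of 1 FPKM and 21 with no fold change limit, and in non-CSCs 17 and 27 with no fold change limit. These moves in part follow from the limits themselves, and otherwise the cause was not tested. With no fold change limit, 11993 of all 16037 genes tested passed in SUM149, 3985 of 15582 in HCC1937 and 10053 of 16451 for the difference between lines. Between these lines, 12236 of 15952 genes passed in CSCs and 12659 of 16433 in non-CSCs. With each library left out in turn, counts were 14 to 16 in SUM149, 5 to 8 in HCC1937, 9 to 10 for the difference between lines, 12 to 14 and 16 to 17 between these lines in CSCs and non-CSCs, 17 to 18 for SUM159 against SUM149 and 22 to 23 against HCC1937. With replicate numbers as a block the counts were 16 in SUM149, 7 in HCC1937, 10 for the difference between lines and 13 between these lines in CSCs. After removal of group means, CSC and non-CSC libraries of the same number correlated at 0.0287 to 0.136 in SUM149 and −0.158 to −0.0355 in HCC1937. Libraries of different numbers correlated at −0.195 to 0.15. With 3 libraries in a group, these values cannot show whether the numbers are pairs. With the GC trend removed, counts were 17 in SUM149, 9 in HCC1937, 12 for the difference between lines, and 11 and 16 between these lines in CSCs and non-CSCs. With it, 4 called values changed sign: against SUM149, ITGA1 to 0.44, ITGB6 to 0.42 and ITGB8 to 0.57, and against HCC1937, ITGA1 to 0.96. ITGB6 and ITGB8 lie under the constant of 0.1 in SUM159, so their sign follows from the correction and is not a measured reversal. ITGA1, at 0.254, 0.315 and 0.380 FPKM in SUM159, was under every CSC library of both sorted lines. After TPM rescaling ITGA1 was at −3.355 against SUM149 and −2.787 against HCC1937. Its change of sign is thus also found only after the correction.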

Other observations

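Several limits apply to these values. They are mRNA levels of genes and not protein on the cell surface. Each group had 3 libraries of 1 line, and no source states that they were separate cultures. The fractions differ in epithelial and mesenchymal content, and the part of that content in single genes was not tested. SUM159 was unsorted and differed from the other lines in its FPKM sums, genes detected and GC trend, which cannot be told apart from the line itself.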
